A study of Mus musculus with 24 samples.

Results

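The genes described here are the MHC class II genes of the mouse and the factor that switches them on: H2-Aa, H2-Ab1, H2-Ea, H2-Eb1, H2-DMa, H2-Oa, H2-Ob, Cd74 and Ciita. They were taken by gene symbol from a written list, and all 9 were among the 13499 genes measured, each by 1 probe set and with no filter on low values. Expression was measured on whole-transcript arrays in total RNA of the right lung lobe of 24 mice from 6 inbred strains, in a series on strain genes that modify the lung fibrosis caused by TGF-β1. The TG mice carried an inducible TGF-β1 transgene and the WT mice did not. All 24 mice, WT included, had drunk doxycycline, the inducer of the transgene, for 2 weeks. There were 17 TG and 7 WT mice: C57BL/6J had 2 of either kind, and each of C3H, BALB/cJ, AKR/J, A/J and 129 (S129 in the labels) had 3 TG mice and 1 WT mouse. In the series design the fibrosis-prone strains are C57BL/6J, A/J and AKR/J, and the fibrosis-resistant strains are C3H, 129 and BALB/cJ. A per-mouse fibrosis code, where 1 is said to stand for prone, gives the opposite assignment. The design was followed, and under the other reading every prone minus resistant value changes sign. The labels give no age, no sex and no promoter for the transgene, and the level of Tgfb1 was not analysed here.

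MHC class II molecules present peptides from swallowed proteins to CD4+ T cells. In lung they are carried mainly by dendritic cells, B cells and macrophages, and at a lower level by alveolar type 2 cells. H2-Aa and H2-Ab1 encode the alpha and beta chains of the I-A molecule, and H2-Ea and H2-Eb1 those of I-E. Cd74 encodes the invariant chain, which blocks the peptide groove until the molecule reaches the endosome. H2-DMa is a chain of H2-M, which loads peptides, and H2-Oa and H2-Ob form H2-O, an inhibitor of H2-M best known from B cells. Ciita is the class II transactivator: it binds no DNA itself but is recruited by RFX, CREB and NF-Y factors that sit on a conserved row of boxes (W, X and Y) in front of class II genes. In mice of the H2 b haplotype, here 129 and C57BL/6J, H2-Ea is not transcribed and no I-E reaches the cell surface.

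The promoters through which Ciita acts are shown first, since members that differed between TG and WT mice and members that did not pass the test hold the same letters. RefSeq promoters (build GRCm38.p6, a C57BL/6J genome and thus of the b haplotype) were at hand for 5 of the 9 genes. The 4 below are the 150 bases before the annotated start, 5′ to 3′ on the gene's own strand, with the X core letters GCAAC and the Y letters TGATTGG in capitals. They lie at chr17:34287824-34287973 (minus strand) for H2-Aa, chr17:34305717-34305866 (plus) for H2-Eb1, chr17:34092229-34092378 (plus) for H2-Oa and chr17:34238755-34238904 (plus) for H2-Ob.
H2-Aa: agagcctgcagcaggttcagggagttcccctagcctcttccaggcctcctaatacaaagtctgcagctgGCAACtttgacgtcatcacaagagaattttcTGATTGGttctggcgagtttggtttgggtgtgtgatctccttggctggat
H2-Eb1: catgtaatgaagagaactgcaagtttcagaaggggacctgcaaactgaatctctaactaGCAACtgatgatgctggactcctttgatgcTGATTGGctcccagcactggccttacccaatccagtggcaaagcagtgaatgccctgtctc
H2-Oa: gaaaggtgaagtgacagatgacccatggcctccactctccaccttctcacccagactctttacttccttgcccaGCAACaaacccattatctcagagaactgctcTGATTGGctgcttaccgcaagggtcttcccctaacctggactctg
H2-Ob: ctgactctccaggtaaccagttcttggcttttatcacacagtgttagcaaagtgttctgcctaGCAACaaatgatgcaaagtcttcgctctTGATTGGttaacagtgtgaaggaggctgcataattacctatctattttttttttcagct

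The X and Y letters stood in the same order in all 4, with 26 bases between them in H2-Aa, 25 in H2-Eb1, 26 in H2-Oa and 23 in H2-Ob. The Y letters began 50, 61, 45 and 59 bases before the start of these genes. The motifs share no letters in these sequences. The search covered both strands of the 250 bases before the start of each RefSeq gene, and its letters were chosen after these promoters had been read. Of 32851 promoters, 7.23% held the Y letters, 29.9% the X core letters and 0.256% (84 promoters) both on 1 strand, X first, with 10 to 40 bases between them. H2-Eb2, a class II beta gene next to H2-Eb1, also held the pair, 25 bases apart. The H2-M beta chain genes H2-DMb1 and H2-DMb2 were searched as well. They held the Y letters but no X core letters, and so no pair. Neither of the RefSeq promoters of H2-DMa held Y letters in this window, which says only that these exact letters are not there.

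The lung label was met by the arrays: Sftpc, the surfactant protein of alveolar type 2 cells, averaged 14.38 on the log2 scale, near the top of the measured range of 3.41 to 14.75. Array medians lay between 7.759 and 7.835, and the 17 pairs of mice within groups had correlations over genes of 0.9916 to 0.9972. The labels do not state that the mice of a group came from separate litters, so p-values measure the spread between these arrays, whose number limits the precision. Among mice in groups of more than 1, no array stood apart from its group over all genes. The lone WT mice of 5 strains have no group mate and could not be checked in this way. Of the TG mice, 1 A/J mouse stood apart for H2-Oa, H2-Ob and B cell genes, as given below with those genes.

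Lungs of TG mice held more class II transcript than lungs of WT mice of the same strain. Of the 9 members, 7 were higher in TG mice and 0 were lower at an adjusted p under 0.05, where 26.7% of all genes were called, 13.2% higher and 13.5% lower. One of the 7, H2-Ea, lost its call under 2 alternative treatments of the strains and replicates, given below with that gene. The median difference of the members was 0.53 on the log2 scale, against -0.001 for all genes. Ciita, Cd74, H2-DMa, H2-Aa, H2-Ab1, H2-Eb1 and H2-Ea were 1.32-fold to 1.57-fold higher, and H2-Oa and H2-Ob did not pass the test. TG and WT mice were compared within strains (strain as a fixed term, limma, p-values adjusted over all 13499 genes), and all values are log2 intensities. In RNA of a whole lobe, more cells that carry class II and more class II RNA per cell cannot be told apart.

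Ciita, the transactivator, gave 9.80, 9.69 and 9.88 in 129 TG mice, against 8.94 in the WT mouse, and 9.41, 9.52 and 9.76 in A/J TG mice, against 9.05 in the WT mouse. It gave 9.64, 9.39 and 9.35 in AKR/J TG mice, against 8.72 in the WT mouse, and 9.42, 9.33 and 9.47 in BALB/cJ TG mice, against 8.80 in the WT mouse. In C3H the TG mice gave 9.87, 9.95 and 9.72, against 8.89 in the WT mouse, and in C57BL/6J the TG mice gave 9.82 and 9.57, against 9.28 and 9.40 in the WT mice. Every TG mouse was above every WT mouse of its strain, with the narrowest gap in C57BL/6J. Across strains the ranges met: the lowest TG mouse (9.33, BALB/cJ) was below the highest WT mouse (9.40, C57BL/6J). Over the 6 strains Ciita was 0.65 ± 0.07 (SE) higher in TG mice, 1.57-fold, with an adjusted p of 3.4e-07, and ranked 107 of 13499 genes by p.

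Cd74, the invariant chain, was the member with the least spread between mice, with a residual SD of 0.074 where the median gene had 0.104. It gave 13.40, 13.33 and 13.46 in 129 TG mice, against 12.94 in the WT mouse, and 13.30, 13.40 and 13.33 in A/J TG mice, against 12.82 in the WT mouse. It gave 13.25, 13.17 and 13.10 in AKR/J TG mice, against 12.74 in the WT mouse, and 13.34, 13.24 and 13.41 in BALB/cJ TG mice, against 12.85 in the WT mouse. The C3H TG mice gave 13.38, 13.41 and 13.21, against 12.90 in the WT mouse, and the C57BL/6J TG mice gave 13.42 and 13.49, against 13.16 and 13.17 in the WT mice. No TG mouse overlapped a WT mouse of its strain, and the TG values of the 6 strains lay close together. The difference was 0.43 ± 0.04, 1.35-fold, with an adjusted p of 3.4e-08 and rank 48 of all genes, and Cd74 alone among the members was also called in each of the 6 strains taken singly.

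**Figure D1:**
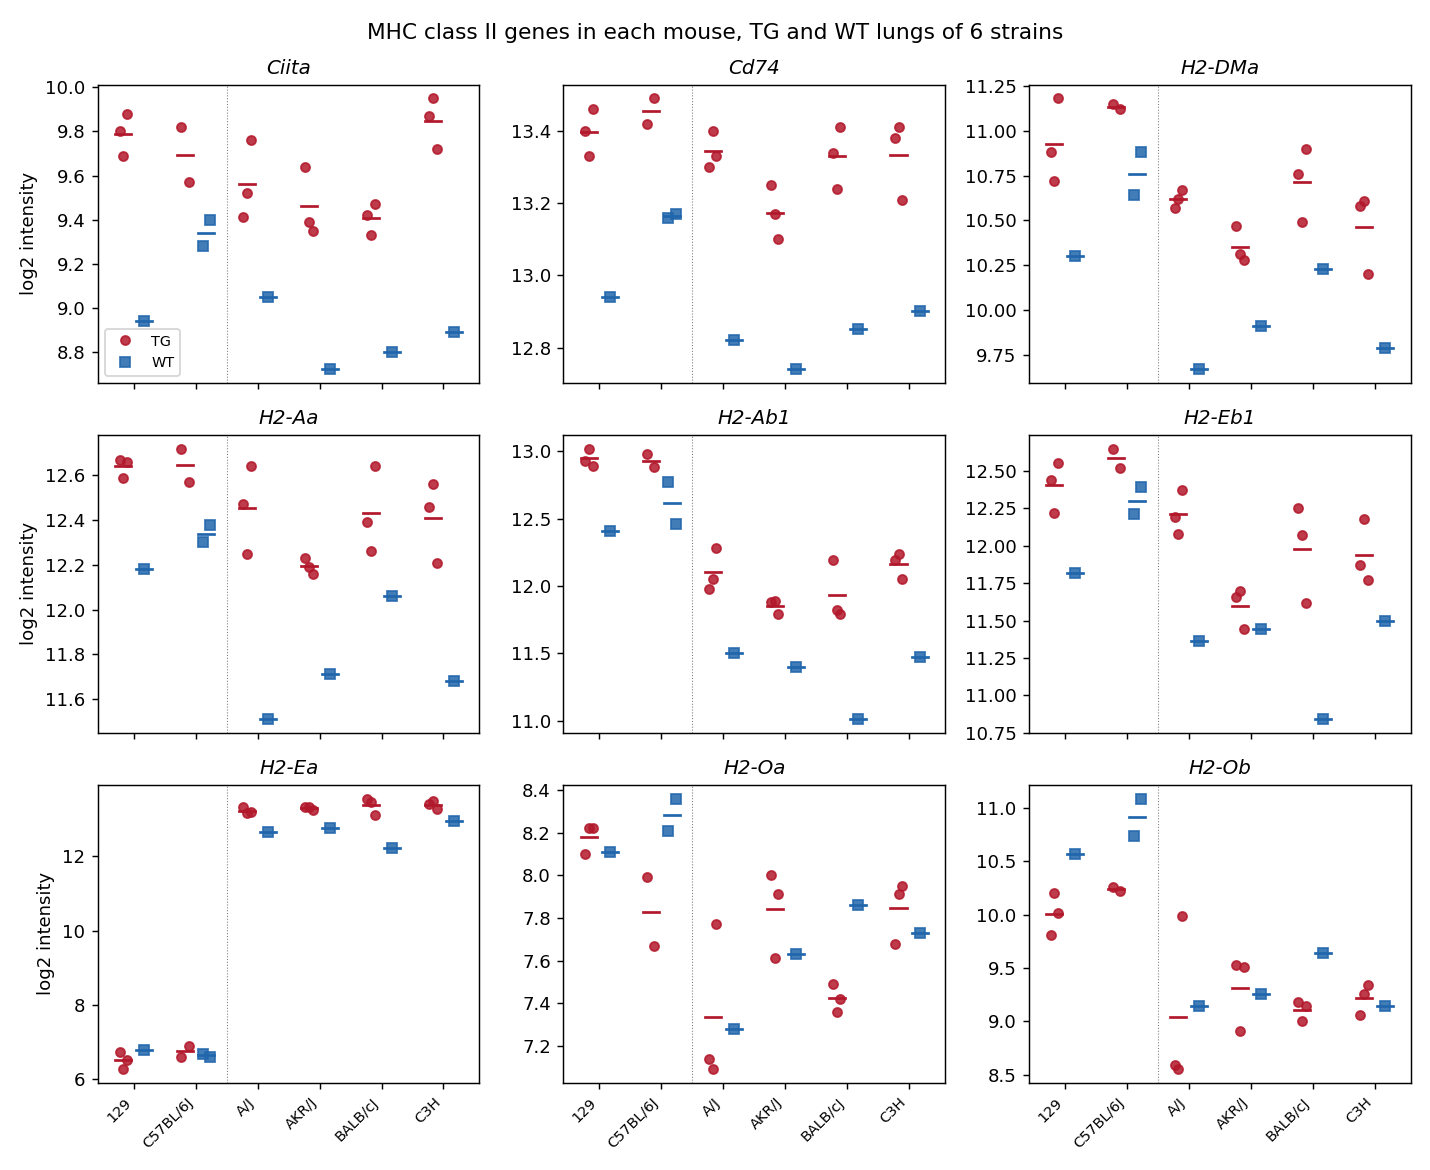
Log2 intensity of the 9 genes in each of the 24 mice (TG circles left of WT squares, short bars for group means), with the b haplotype strains 129 and C57BL/6J left of the dotted line; each panel has its own vertical axis. TG points stand above the WT points of their strain in every panel of the upper 2 rows, but for H2-Eb1 in AKR/J. There 1 TG point and the WT point are level at 11.44, to the 2 decimals plotted. H2-Ea drops to between 6.27 and 6.90 in the b haplotype strains, and H2-Oa and H2-Ob show no common order of TG and WT.

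The chains of I-A rose together. H2-Aa ranged over 12.16 to 12.72 (median 12.47) in the 17 TG mice, against 11.51 to 12.38 (median 12.06) in the 7 WT mice, and was 0.53 ± 0.07 higher within strains (1.45-fold, adjusted p = 8.3e-06). H2-Ab1 ranged over 11.79 to 13.02 (median 12.19) in TG mice, against 11.01 to 12.77 (median 11.50) in WT mice, and was 0.57 ± 0.07 higher (1.49-fold, adjusted p = 2.1e-06). Across strains the ranges of TG and WT mice overlapped. Within each strain every TG mouse was above every WT mouse for both genes.

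H2-Eb1, the beta chain of I-E, ranged over 11.44 to 12.65 (median 12.18) in TG mice, against 10.84 to 12.39 (median 11.50) in WT mice, a difference of 0.56 ± 0.10 within strains (1.48-fold, adjusted p = 0.00024). The gap was smallest in AKR/J, with 11.66, 11.70 and 11.44 in TG mice, against 11.44 in the WT mouse. It was widest in BALB/cJ, with 12.25, 12.07 and 11.62 in TG mice, against 10.84 in the WT mouse. H2-DMa, the peptide loader's alpha chain, ranged over 10.20 to 11.18 (median 10.62) in TG mice, against 9.67 to 10.88 (median 10.23) in WT mice, and was 0.58 ± 0.08 higher (1.5-fold, adjusted p = 6.3e-06). Both genes had every TG mouse above every WT mouse in all 6 strains, H2-Eb1 in AKR/J by less than the second decimal shows. The same held for Ciita, Cd74, H2-Aa and H2-Ab1, so it held for 6 of the 9 members, where 4.02% of all genes had this order.

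H2-Ea, the alpha chain of I-E, behaved by haplotype. In the 4 strains that transcribe it, it gave 13.32, 13.16 and 13.19 in A/J TG mice, against 12.66 in the WT mouse, and 13.33, 13.31 and 13.25 in AKR/J TG mice, against 12.77 in the WT mouse. It gave 13.55, 13.46 and 13.10 in BALB/cJ TG mice, against 12.21 in the WT mouse, and 13.40, 13.48 and 13.28 in C3H TG mice, against 12.95 in the WT mouse. All TG mice of these 4 strains were above the WT mouse of their strain, which 16.2% of all genes reached in at least 4 strains. In the b haplotype strains it gave 6.74, 6.27 and 6.52 in 129 TG mice, against 6.78 in the WT mouse, and 6.60 and 6.90 in C57BL/6J TG mice, against 6.69 and 6.61 in WT mice. In 129 every TG mouse was below the WT mouse and in C57BL/6J the values mixed. In these strains 6 of the 8 mice had H2-Ea below the lower quartile of all genes on their own array. Over the 6 strains H2-Ea was 0.40 ± 0.11 higher (1.32-fold, adjusted p = 0.0089). The call was lost with strain as a random block (0.73, adjusted p = 0.57) and with the replicate number as a block (0.45, adjusted p = 0.068), which leaves 6 members higher. The value also depended on single mice: it was 0.26 without the BALB/cJ WT mouse and 0.53 without the 129 WT mouse. Over the 4 transcribing strains, a choice made after the data were seen, it was 0.67 ± 0.08 (1.59-fold, adjusted p = 3.6e-05), and there H2-Ab1 was 0.67 ± 0.08, H2-Aa 0.63 ± 0.08 and H2-Eb1 0.65 ± 0.10 higher.

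The H2-O inhibitor genes did not follow the others. H2-Ob gave 9.81, 10.20 and 10.02 in 129 TG mice, against 10.57 in the WT mouse, and 10.26 and 10.22 in C57BL/6J TG mice, against 10.74 and 11.09 in WT mice. It gave 9.18, 9.0 and 9.14 in BALB/cJ TG mice, against 9.64 in the WT mouse. In these 3 strains every TG mouse was below every WT mouse, an order that 29.7% of all genes had in at least 3 strains. It gave 9.53, 8.91 and 9.51 in AKR/J TG mice, against 9.26 in the WT mouse, and 9.06, 9.26 and 9.34 in C3H TG mice, against 9.14 in the WT mouse, so TG mice lay on both sides of the WT mouse. In A/J the TG mice gave 8.59, 8.55 and 9.99, against 9.14 in the WT mouse, and the third TG mouse stood far above the other 2. The difference over 6 strains was -0.31 ± 0.15 (adjusted p = 0.14). A single mouse decided this call: without the third A/J TG mouse the difference was -0.38 ± 0.10, with an adjusted p of 0.0068.

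H2-Oa gave 7.49, 7.36 and 7.42 in BALB/cJ TG mice, against 7.86 in the WT mouse, and 7.99 and 7.67 in C57BL/6J TG mice, against 8.21 and 8.36 in WT mice. In the other 4 strains TG and WT values mixed: over all strains TG mice ranged over 7.09 to 8.22 and WT mice over 7.28 to 8.36. The difference was -0.09 ± 0.09 (adjusted p = 0.51, 95% interval -0.29 to 0.10), so a rise of the size seen in the other members lay outside the interval.

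Taken strain by strain, 21 of the 54 member and strain pairs were higher in TG mice and 0 were lower. A/J had 7 (6.8% of all genes were called higher there), BALB/cJ 5 (0.993%), C3H 4 (0.489%), 129 2 (1.56%), AKR/J 2 (1.54%) and C57BL/6J 1 (6.96%). Of all genes, 8.08% were called lower in A/J, 1.27% in BALB/cJ, 0.333% in C3H, 1.39% in 129, 0.57% in AKR/J and 7.39% in C57BL/6J. With 1 WT mouse in 5 of the strains these counts depend on that mouse, which was assumed to vary like mice of the other groups. Ciita was called in 5 strains, with its widest difference in C3H (0.95 ± 0.14, 1.93-fold, adjusted p = 0.0078, rank 5 of all genes) and in 129 (0.85 ± 0.14, 1.80-fold, adjusted p = 0.004). In C57BL/6J it was 0.36 ± 0.12 higher (adjusted p = 0.063).

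The members with the largest difference were not the same in A/J and BALB/cJ. In A/J they were H2-DMa (0.95 ± 0.18, adjusted p = 0.0018), H2-Aa (0.94 ± 0.15, adjusted p = 0.00054) and H2-Eb1 (0.86 ± 0.20, adjusted p = 0.0083). The A/J TG mice gave 10.57, 10.62 and 10.67 for H2-DMa, against 9.67 in the WT mouse, and 12.47, 12.25 and 12.64 for H2-Aa, against 11.51 in the WT mouse. In BALB/cJ they were H2-Ea (1.16 ± 0.17, 2.23-fold, adjusted p = 0.0021), H2-Eb1 (1.14 ± 0.20, 2.21-fold, adjusted p = 0.008) and H2-Ab1 (0.92 ± 0.15, adjusted p = 0.005), while H2-Aa there was 0.37 ± 0.15 (adjusted p = 0.24). Each of these rests on 1 WT mouse. The BALB/cJ WT mouse was the lowest of the 7 WT mice for H2-Ab1 (11.01) and H2-Eb1 (10.84), but not for H2-Aa (12.06).

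**Figure D2:**
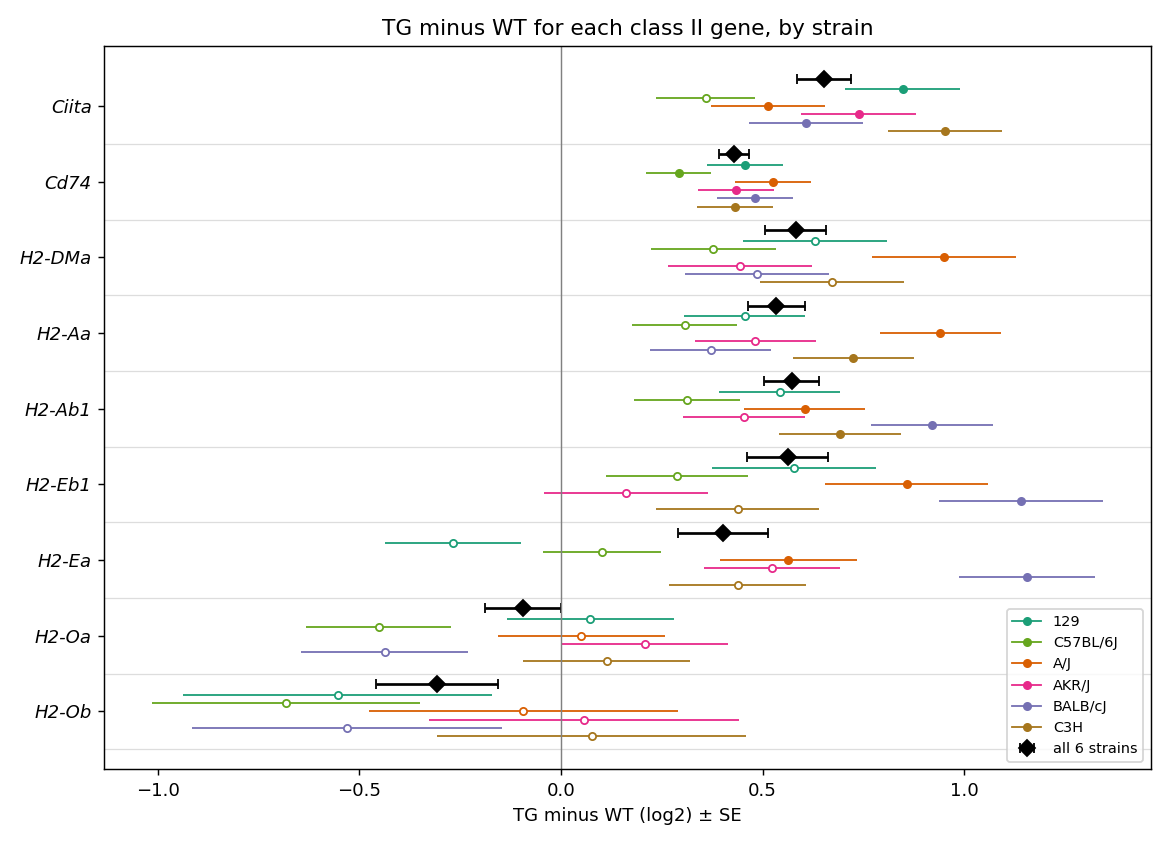
TG minus WT (log2, points with SE bars) for each gene, over all 6 strains (black diamonds) and in each strain (coloured circles, filled where the adjusted p was under 0.05). Ciita, Cd74, H2-DMa, H2-Aa, H2-Ab1 and H2-Eb1 lie right of zero in every strain, H2-Ea in all but 129, and H2-Oa and H2-Ob on both sides.

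A test of whether the TG minus WT difference itself varied among strains called 0 of the 8 members other than H2-Ea by limma (1, H2-Eb1, at an unadjusted p under 0.05), where 1.34% of all genes were called. The adjusted p lay between 0.26 (H2-Eb1) and 0.81 (H2-Ob and Cd74), so the differing orders above were not shown to differ. For H2-Ea the same fit gave an adjusted p of 0.045, which is given as a description alone, since the gene was known to be silent in 129 and C57BL/6J. Over the 4 transcribing strains its adjusted p was 0.32. It missed the threshold in 15 of the 24 fits that each left out 1 mouse, and ranged over 0.013 to 0.19 in them, with the highest value without the BALB/cJ WT mouse.

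The fibrosis-prone and fibrosis-resistant strains were compared next, which is the question of the series. In the prone strains 7 of the 9 members were higher in TG than in WT mice (12% of all genes were called higher), and in the resistant strains 7 were higher (4.92%). Ciita was 0.54 ± 0.08 higher in TG mice of the prone strains and 0.80 ± 0.08 higher in those of the resistant strains. The difference between the sets was called for 0 of 9 members by limma (2 at an unadjusted p under 0.05), where 0.474% of all genes were called. It ranged from -0.28 to 0.10. The members furthest from 0 relative to their error were Ciita (-0.27 ± 0.11, adjusted p = 0.37, 95% interval -0.51 to -0.03) and H2-Ab1 (-0.26 ± 0.12, adjusted p = 0.42, interval -0.52 to -0.01), and these intervals are not adjusted for the number of genes. The intervals of H2-DMa (-0.31 to 0.30) and H2-Aa (-0.19 to 0.31) leave room for differences of either sign.

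The levels of TG mice of the prone and the resistant strains were also compared directly. Again 0 of 9 members were called by limma (0 at an unadjusted p under 0.05), where 11.1% of all genes were, and the differences ranged from -0.15 to 0.09 with a smallest adjusted p of 0.30. Cd74 averaged 13.32 in TG mice of the prone strains and 13.35 in TG mice of the resistant strains (95% interval of the difference -0.11 to 0.06). H2-Ab1 averaged 12.30 in TG mice of the prone strains and 12.35 in TG mice of the resistant strains (interval -0.19 to 0.08). These intervals, and those of the TG minus WT difference between the sets, use the spread between mice of a group. They therefore speak of these 6 strains alone. Strain means of H2-Ab1 in TG mice ran from 11.85 (AKR/J) to 12.93 (C57BL/6J) among the prone. Among the resistant they ran from 11.93 (BALB/cJ) to 12.95 (129). Each set holds 1 strain of the b haplotype, C57BL/6J among the prone and 129 among the resistant.

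The class II genes also differed in level between strains. All 8 members tested did, where 34.8% of all genes were called, with adjusted p from 1.7e-08 (H2-Ab1) to 0.009 (Ciita). H2-Ea was left out of the tests of level, since its absence in the b haplotype was known when the genes were chosen. It ranged over 6.27 to 6.90 in the 8 mice of the b haplotype strains and over 12.21 to 13.55 in the 16 others, a difference of -6.31 between the means.

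The other class II genes were higher in the b haplotype strains than in C3H, BALB/cJ, AKR/J and A/J. All 8 members tested were called higher, where 13.8% of all genes were called, 7.21% higher. H2-Ab1 ranged over 12.41 to 13.02 in the b haplotype mice, against 11.01 to 12.28 in the others, with no overlap, an order that 0.0741% of all genes had. Its difference was 1.05 ± 0.06 (2.06-fold, adjusted p = 1.9e-08, rank 6 of all genes). H2-Ob ranged over 9.81 to 11.09 in b haplotype mice, against 8.55 to 9.99 in the others, and overlapped only through the third A/J TG mouse. Its difference was 1.20 ± 0.16 (2.30-fold, adjusted p = 0.00013).

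H2-Eb1 was 0.67 ± 0.08 higher in the b haplotype strains (1.59-fold, adjusted p = 7.7e-05), H2-DMa 0.56 ± 0.07 (adjusted p = 0.00013), H2-Oa 0.48 ± 0.09 (adjusted p = 0.0016) and H2-Aa 0.39 ± 0.06 (adjusted p = 0.00065). The genes outside the H2 complex differed least: Ciita, on chromosome 16, by 0.22 ± 0.06 (adjusted p = 0.019) and Cd74, on chromosome 18, by 0.18 ± 0.04 (adjusted p = 0.0069). With the mean of each strain as the unit, which treats 129 and C57BL/6J as 2 points against 4, the call was kept for H2-Ab1 (adjusted p = 0.032) and H2-Ob (adjusted p = 0.018) and lost for the other 6. Without C57BL/6J the calls of Ciita and Cd74 were lost (adjusted p = 0.30 and 0.29). H2-Eb2, not a member, was 1.41 ± 0.10 higher in the b haplotype strains (adjusted p = 1.2e-07). Markers of cells were listed in the same comparison, in which 13.8% of all genes were called, 7.21% higher. Of 10 B cell markers 1, Blk, was called higher (0.32 ± 0.09, list median 0.23), of 6 dendritic cell markers 1, Irf4 (0.40 ± 0.07, median 0.15), and of 10 interstitial macrophage and monocyte markers 2, Ms4a7 (0.40 ± 0.07) and Adgre1 (0.24 ± 0.05, median 0.03). Of 4 alveolar macrophage markers Chil3 was higher (1.88 ± 0.28) and Car4 lower (-0.24 ± 0.06, median 0.02), of 6 general leukocyte genes Cd48 was higher (0.28 ± 0.06, median 0.12), and of 8 co-stimulation genes Cd86 was higher (0.31 ± 0.09, median 0.08). No marker list had more than 2 genes called, and their part in the haplotype difference was not tested. Whether sequence differences between strains alter binding to the probes was not tested.

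In TG mice the order of the strains followed the haplotype for H2-Ab1, less clearly for H2-DMa and not for Ciita. H2-Ab1 averaged 12.95 ± 0.065 (SD, n = 3) in 129 and 12.93 ± 0.075 (n = 2) in C57BL/6J, which did not differ beyond their spread. Below them came C3H with 12.16 ± 0.10, A/J with 12.11 ± 0.16, BALB/cJ with 11.93 ± 0.23 and AKR/J with 11.85 ± 0.057 (n = 3 each), where each neighbour lay within the spread of the next. For H2-DMa the order was C57BL/6J with 11.13 ± 0.023 (n = 2), 129 with 10.93 ± 0.24, BALB/cJ with 10.71 ± 0.21, A/J with 10.62 ± 0.049, C3H with 10.46 ± 0.23 and AKR/J with 10.35 ± 0.10 (n = 3 each), and 129 and BALB/cJ did not differ beyond their spread. AKR/J was last for Cd74, H2-Aa, H2-Ab1, H2-Eb1 and H2-DMa alike. For Ciita the order was another one: C3H came first with 9.84 ± 0.12, above 129 with 9.79 ± 0.099 and C57BL/6J with 9.69 ± 0.17, and BALB/cJ last with 9.41 ± 0.07.

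The partners of the class II molecules moved partly with them. Of 4 measured partner genes, 3 were higher in TG mice and 0 lower, with a median difference of 0.24. In this comparison 13.2% of all genes were called higher and 13.5% lower. H2-Eb2, a little-studied beta chain gene, was 0.82 ± 0.10 higher (adjusted p = 2.7e-06). The lysosomal protease gene Lgmn was 0.33 ± 0.06 (adjusted p = 2e-04) and Ctsl 0.14 ± 0.04 (adjusted p = 0.014) higher. Ctss, the protease that makes the last cuts of the invariant chain in dendritic cells and B cells, differed by 0.11 ± 0.07 (adjusted p = 0.26). Expression of the H2-M beta chain genes H2-DMb1 and H2-DMb2 was not analysed here.

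The list of class II promoter factors held genes for factors that sit on the boxes (Rfx5, Rfxap, Nfya, Nfyb, Nfyc and Creb1), the coactivators Crebbp and Ep300, and the general factor Sp1. Of these 9 genes 0 were called by limma (4 at an unadjusted p under 0.05: Rfx5, Rfxap, Creb1 and Ep300), with a median difference of 0.03. Among all genes 26.7% were called, 13.2% higher and 13.5% lower, which is also the background for the interferon genes below. The RFX subunit genes Rfxap (0.10 ± 0.04, adjusted p = 0.051) and Rfx5 (0.10 ± 0.05, adjusted p = 0.11) had the largest positive differences. Interferon gamma is the classic inducer of Ciita, and the genes of its pathway went both ways: of 10 measured, 3 were higher and 2 lower, with a median of -0.002. Higher were the GTPase gene Iigp1 (0.49 ± 0.07), the receptor chain Ifngr2 (0.30 ± 0.05) and the kinase Jak2 (0.29 ± 0.04). Lower were the GTPase gene Gbp3 (-0.33 ± 0.12, adjusted p = 0.046) and the kinase Jak1 (-0.13 ± 0.03). Irf1, which binds a Ciita promoter, differed by -0.14 ± 0.07 (adjusted p = 0.14) and Ifng by -0.12 ± 0.05 (adjusted p = 0.085).

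The MHC class I pathway, which loads peptides from the cytosol, had 2 of 10 genes higher and 1 lower, with a median of -0.02. Among all genes 26.7% were called, 13.2% higher and 13.5% lower, which is also the background for the co-stimulation genes below. The chaperone gene Pdia3 was 0.24 ± 0.04 and the proteasome activator Psme1 0.10 ± 0.04 higher, and the immunoproteasome subunit Psmb9 was lower in TG mice (-0.19 ± 0.05). B2m, the light chain of class I, differed by -0.01 ± 0.04 (adjusted p = 0.95). Of 8 co-stimulation genes, Cd86 was higher (0.60 ± 0.09, adjusted p = 2.7e-05) and Icosl lower (-0.14 ± 0.04, adjusted p = 0.0077).

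Markers of the cells that carry class II moved in opposite directions. Among all genes 13.2% were called higher in TG mice and 13.5% lower. Of 10 markers of interstitial macrophages and monocytes 7 were higher in TG mice and 0 lower (median 0.43), led by Ms4a7 (1.04 ± 0.12) and the complement genes C1qc (0.97 ± 0.13), C1qb (0.86 ± 0.11) and C1qa (0.76 ± 0.10). Their mean level was 8.74 to 9.94 in TG mice and 8.57 to 9.06 in WT mice. It differed by 0.97 in A/J and by 0.07 in AKR/J. In the same order of strains, Ciita differed by 0.51 and 0.74, Cd74 by 0.53 and 0.43, and H2-Ea by 0.56 and 0.52. H2-Eb1 differed by 0.86 and 0.16, H2-DMa by 0.95 and 0.44, H2-Aa by 0.94 and 0.48, and H2-Ab1 by 0.60 and 0.45. H2-Oa differed by 0.05 and 0.21, and H2-Ob by -0.09 and 0.06. In the other strains the marker mean differed by 0.62 (C57BL/6J), 0.52 (129), 0.49 (BALB/cJ) and 0.30 (C3H). In that order, Ciita differed by 0.36, 0.85, 0.61 and 0.95, and Cd74 by 0.29, 0.46, 0.48 and 0.43. H2-Eb1 differed by 0.29, 0.58, 1.14 and 0.44, and H2-DMa by 0.38, 0.63, 0.49 and 0.67. H2-Aa differed by 0.31, 0.46, 0.37 and 0.73, and H2-Ab1 by 0.31, 0.54, 0.92 and 0.69. A relation of these differences to the markers was not tested. Of 10 B cell markers 9 were lower (median -0.58), among them Bank1 (-0.77 ± 0.19), Ms4a1 (-0.73 ± 0.20), Cr2 (-0.73 ± 0.14) and Pax5 (-0.69 ± 0.15). Their mean level was 8.22 to 9.30 in TG mice and 8.74 to 10.05 in WT mice, and it was lower in TG mice in all 6 strains.

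The lists for dendritic cells, alveolar macrophages and alveolar type 2 cells had medians closer to that of all genes. These lists were covered in part: 6 of 14 dendritic cell markers and 4 of 11 alveolar macrophage markers were among the genes analysed. Among all genes 13.2% were called higher in TG mice and 13.5% lower. Of 6 dendritic cell markers Itgae was higher (0.70 ± 0.14) and Ccr7 lower (-0.58 ± 0.10), with a median of -0.07. Of 4 alveolar macrophage markers 0 were called by limma (1, Car4, at an unadjusted p under 0.05, median -0.25). Of 9 alveolar type 2 markers 2 were higher, Il33 (0.62 ± 0.12) and Sftpd (0.23 ± 0.08), with a median of 0.02, and Sftpc differed by -0.01 ± 0.03. All 3 T and NK cell markers analysed, of 12 listed, were lower. Their median of -0.59 was about as large as that of the B cell markers (-0.58). Of 6 general leukocyte genes 1 was lower, Ptprc (-0.41 ± 0.08), and 0 were higher, with a median of -0.08, and Spi1 (0.14 ± 0.08), Cd52 (0.06 ± 0.10) and Laptm5 (-0.02 ± 0.06) did not pass the test. How far shifts in cell types take part in the class II differences was not tested.

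**Figure D3:**
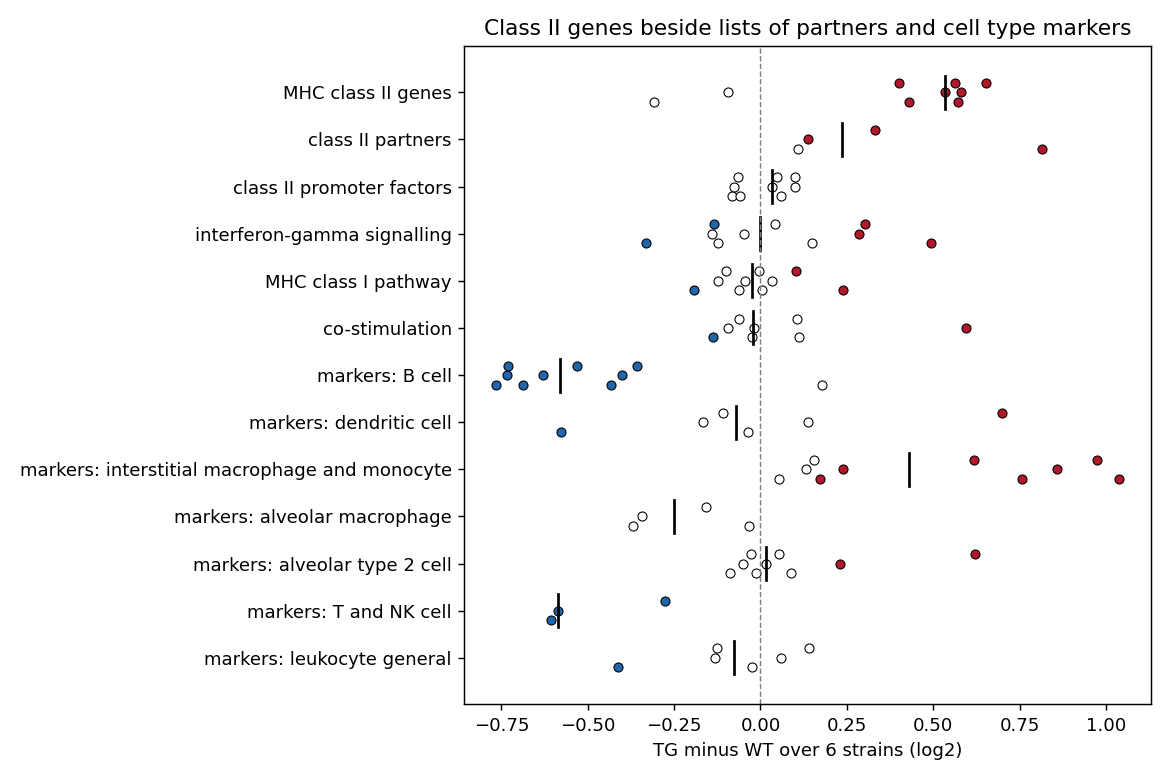
TG minus WT over 6 strains (log2) for each gene of the class II set and of the other lists (points, red where higher and blue where lower at an adjusted p under 0.05, open otherwise; bars mark list medians and the dashed line the median of all genes). The class II set has 7 red points between 0.40 and 0.65 and 2 open ones left of zero, the promoter factors are all open, and the B cell markers lie left of zero but for 1.

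Mice of the same group also varied among themselves, which gives a measure that the TG and WT contrast does not enter. Deviations from the group mean were correlated over the 19 mice in groups of more than 1, by an exact permutation test within groups with 54 relations adjusted together (two-sided). H2-Oa and H2-Ob went together with Pearson's r of 0.93 and Spearman's rho of 0.88 (permutation p = 6.4e-05 and 0.00026, adjusted p = 0.0017 and 0.0069). Without the 2 mice furthest from the median of H2-Ob, r was 0.85. In the other relations the 2 mice were likewise chosen on the second of the 2 genes, or on the markers. H2-DMa went with Cd74 at r = 0.86 and rho = 0.85 (permutation p = 0.00084 and 0.0009, adjusted p = 0.011 and 0.012), and at r = 0.77 without 2 mice. H2-DMa went with Ciita at r = 0.71 and rho = 0.78 (permutation p = 3.2e-05 for both, the smallest these permutations can give, adjusted p = 0.0017), and at r = 0.76 without 2 mice.

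H2-Aa went with H2-DMa (r = 0.68, rho = 0.72, exact permutation p = 0.0014 and 0.0012, adjusted p = 0.013 and 0.013, r = 0.67 without 2 mice). It also went with Ciita (r = 0.68, rho = 0.76, exact permutation p = 0.0059 and 0.0046, adjusted p = 0.04 and 0.031, r = 0.65 without 2 mice). Ciita and Cd74, which differed so alike between TG and WT mice, gave r = 0.56 and rho = 0.58 within groups and missed the adjusted threshold (exact permutation p = 0.034 and 0.033, adjusted p = 0.19 and 0.18). The chains of I-A, H2-Aa and H2-Ab1, gave r = 0.20 and rho = 0.11 (exact permutation p = 0.59 and 0.74, adjusted p = 0.75 and 0.82).

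The H2-O genes varied with the B cell markers and the other members did not pass that test. H2-Ob went with the mean of the 10 B cell markers at r = 0.85 and rho = 0.93 (exact permutation p = 0.00058 and 0.00045, adjusted p = 0.01 and 0.0081, r = 0.85 without 2 mice). H2-Oa did so at r = 0.83 and rho = 0.83 (exact permutation p = 0.001 and 0.0015, adjusted p = 0.011 and 0.013, r = 0.76 without 2 mice). For the other 7 members r with the B cell markers lay between -0.13 (H2-Ea) and 0.40 (Ciita). The third A/J TG mouse, with the high H2-Ob value, had a B cell marker mean of 8.91, where the other A/J TG mice had 8.26 and 8.22 and the WT mouse 8.74. With the interstitial macrophage and monocyte markers, H2-Ea passed (r = 0.73, rho = 0.74, exact permutation p = 0.0059 and 0.0032, adjusted p = 0.04 and 0.024, r = 0.55 without 2 mice). Cd74 gave r = 0.29 and Ciita r = 0.16 with them. The relations of H2-Ea included mice of the b haplotype strains, which do not transcribe it. The first and second 129 TG mice deviated by 0.231 and -0.241 for H2-Ea. For the macrophage and monocyte markers they deviated by 0.17 and -0.179, the widest of all mice. In the other b haplotype strain TG mice went opposite ways and WT mice the same way. The relation over the transcribing strains alone was not tested.

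**Figure D4:**
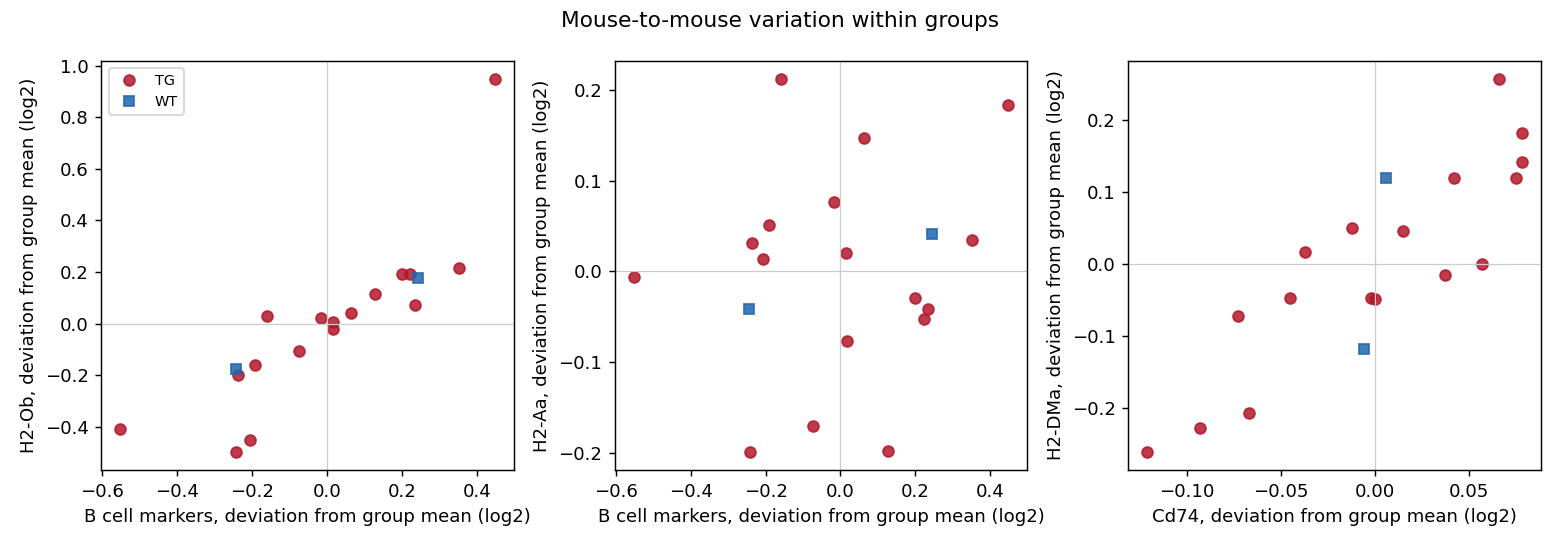
Deviation of each mouse from its group mean (log2; 17 TG circles and 2 WT squares, the 19 mice in groups of more than 1): H2-Ob and H2-Aa against the mean of the B cell markers, and H2-DMa against Cd74. H2-Ob rises along the B cell markers (r = 0.85), H2-Aa shows no such line (r = 0.15), and H2-DMa rises along Cd74 (r = 0.86).

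Genes whose pattern over the 24 arrays was most like that of Ciita, after the mean of each strain was removed, were Limk2 (r = 0.94), Cd74 (r = 0.93), Tc2n (r = 0.93), Fbln5 (r = 0.92) and Fzd2 (r = 0.92). For Cd74 they were Ggact (r = 0.97), Fam234a, Limk2, Pmepa1 and Ildr1 (r = 0.96 each). These values describe arrays that share the difference between TG and WT mice, and each of the genes named was itself higher in TG mice. Within groups r lay between 0.30 (Tc2n) and 0.66 (Fbln5) for the 5 genes nearest Ciita. For the 5 nearest Cd74 it lay between 0.58 (Pmepa1) and 0.78 (Limk2). The genes were picked on values that hold these same deviations, so the within-group r is no separate support. No class II gene of the H2 complex was among the nearest 5 of either gene, but some came close. By the same measure H2-DMa gave r = 0.95 with Cd74 and 0.89 with Ciita, and H2-Aa gave 0.91 and 0.89.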

How the data were processed

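The deposited table held log2 intensities per probe set, already summarised by the authors. The log base was read from their range, and the sources used here do not give the authors' software, normalization or genome build. The RNA was column-purified and labelled with a whole-transcript kit, per the labels' protocols. The table was held in part: 1 of its 25285 rows was incomplete and was left out. Symbols came from the platform annotation, where 14539 probe sets had 1 symbol, 781 several and 9964 none. Of these symbols 14480 matched RefSeq. Genes with several probe sets (590) kept that of highest mean, which gave 13499 genes. No further scaling was applied.

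Tests were two-sided in limma 3.58.1 (R 4.3.3), with Benjamini-Hochberg adjustment over all genes and a threshold of 0.05: strain plus genotype for TG against WT, and 12 group means, sharing 1 estimate of the spread, for the rest. Contrasts weighted strains equally. The fits were tested on simulated data. The 9 members were named throughout. From other lists, up to 4 called genes of largest difference were named, with genes tied by role to a member. For Ciita and Cd74 the 5 most correlated genes were named. Genes, lists and motifs were chosen with earlier results of these data known. Replicate numbers shared by TG and WT mice were not taken as pairing. This could be checked in C57BL/6J alone, where the first TG and WT mice deviated from their groups with r = 0.06. Strains with 1 WT mouse allow no such check, so pairing there is not excluded. Alternatives covered normalization, array weights, dim genes, probe sets, variance model, strains and single mice.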

Additional observations from a re-analysis of the deposited data

Results flagged for a closer look

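For H2-Ea, limma's test of whether TG minus WT varied among the 6 strains gave an adjusted p of 0.045. The gene was known to be silent in 129 and C57BL/6J, where TG minus WT was -0.27 ± 0.17 and 0.10 ± 0.15, so this value is a description and no independent finding. Over the 4 strains that transcribe H2-Ea, TG minus WT was 0.44 (C3H) to 1.16 (BALB/cJ), with an adjusted p of 0.32 for variation among them. With 1 mouse left out at a time the adjusted p over all strains missed the threshold in 15 of 24 fits. No group had the 4 mice that the formal test for a single distant mouse needs.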

How the results depend on the processing

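Ciita, Cd74, H2-Aa, H2-Ab1, H2-Eb1 and H2-DMa were higher in TG mice under each alternative run. H2-Ea lost its call with the replicate block (0.45, adjusted p = 0.068) and with strain as a random block (0.73, adjusted p = 0.57). Leaving out each mouse kept the count of members higher at 7. Members lower numbered 1, H2-Ob, under the replicate block (-0.42, adjusted p = 0.047) and without A/J (-0.35, adjusted p = 0.03), and 0 to 1 when single mice were left out. Without C57BL/6J the difference of H2-Oa was 0.00 (adjusted p = 0.99), past 0 on the other side. Of the pairs of member and strain, 14 (without the A/J WT mouse) to 23 (without the third A/J TG mouse) were higher and 0 to 2 lower when single mice were left out, where no value can be given for a strain whose only WT mouse is dropped. The 2 lower pairs were H2-Oa and H2-Ob in C57BL/6J, without the third A/J TG mouse. The replicate block gave 15 higher and 3 lower pairs: H2-Ob in 129 and C57BL/6J, and H2-Oa in C57BL/6J.

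Strain dependence, with H2-Ea counted, called 1 member, and 0 after quantile normalization (H2-Ea adjusted p = 0.052), with array medians subtracted (0.057), over all probe sets (0.11) and in 4 strains without 129 and C57BL/6J (0.32, chosen after seeing the data), 0 to 1 when single mice were left out, and 2 with the replicate block, H2-Ea and H2-Eb1 (0.041). For the b haplotype strains 7 to 8 members were higher when single mice were left out (Ciita was lost in 4 such fits) and 2 with strain means as the unit. Prone and resistant TG mice differed in 0 to 1 members when single mice were left out, the 1 without the third A/J TG mouse. The difference of TG effects between these sets called 0 members in every alternative run. The causes of these changes were not tested. Replicate numbers were not taken as pairing, which could be checked in C57BL/6J alone, so the block was not used elsewhere. The 5 strains with 1 WT mouse limit the precision of each value by strain.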
